A study of Homo sapiens with 6 samples.

Results

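Antisense transcript loci are annotated genes on the strand opposite another gene. The 594 loci described here were chosen by 2 properties of the deposited table, a gene biotype of antisense and a mean of at least 1 FPKM (read fragments per kilobase of exon, scaled for the size of the library) over the 6 libraries. They came from 5583 antisense loci among 58735 genes, and 4 further loci above the level, SNHG7, SNHG10, SNHG12 and SNHG21, were left out by name. Each locus was set against its partner, the opposite-strand gene it overlaps. The level over all libraries was thus selected on measured values, while the change between the groups was not used in the choice.

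Long antisense RNAs are mostly made by RNA polymerase II, and many start at the promoter of the partner and run away from it. Others lie inside an intron of the partner or run into its end. Some act on the partner locus in cis, some act elsewhere or carry small RNAs, and many are removed quickly by the nuclear RNA exosome. HOTAIRM1, in the HOXA gene cluster, is a known antisense RNA of myeloid cells.

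The libraries came from U937, an established human myeloid line that grows as monocyte-like cells. One group was labelled shENO1, read here as U937 with a short hairpin RNA against ENO1, which encodes alpha-enolase of glycolysis (3 libraries). The other was wild-type U937 (WT, 3 libraries), and no control hairpin was labelled. The hairpin sequence, the vector, the dose and the time do not appear in the labels. Both groups were measured as total RNA through an Illumina TruSeq RNA kit, with no strand setting stated.

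The sequences that matter for the results below are of 2 kinds. The first is 4 promoter windows of head-to-head loci, where a pair shares a start region. They are RefSeq sequences of GRCh38.p14, 250 bases before to 50 bases after the start, printed along the strand of the named gene. By symbol, 111 of the 594 loci had such a window; where the antisense locus had none, the window of its partner is shown. In the PARP2 window (chr14:20343385-20343684, plus strand) capitals mark the 174 bases of the antisense locus AL355075.4 that no other exon covers.
PARP2: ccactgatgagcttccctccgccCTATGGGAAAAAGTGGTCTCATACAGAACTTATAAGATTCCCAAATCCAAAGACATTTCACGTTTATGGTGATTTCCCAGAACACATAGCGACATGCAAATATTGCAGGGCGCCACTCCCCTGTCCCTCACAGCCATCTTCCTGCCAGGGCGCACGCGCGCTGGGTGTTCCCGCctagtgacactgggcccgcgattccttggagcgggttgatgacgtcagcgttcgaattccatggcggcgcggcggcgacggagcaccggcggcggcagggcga
In the windows of ZFAND2A (chr7:1160147-1160446, minus strand) and MEIS1-AS3 (chr2:66433421-66433720, minus strand) capitals mark each CCAAT, read on either strand, and each heat shock repeat in the form TTCNNGAA.
ZFAND2A: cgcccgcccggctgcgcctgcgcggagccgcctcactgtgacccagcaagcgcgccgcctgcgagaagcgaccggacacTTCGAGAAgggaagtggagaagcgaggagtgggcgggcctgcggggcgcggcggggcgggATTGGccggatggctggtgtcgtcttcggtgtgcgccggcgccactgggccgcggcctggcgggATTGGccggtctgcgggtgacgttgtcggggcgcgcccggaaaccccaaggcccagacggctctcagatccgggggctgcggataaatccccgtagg
MEIS1-AS3: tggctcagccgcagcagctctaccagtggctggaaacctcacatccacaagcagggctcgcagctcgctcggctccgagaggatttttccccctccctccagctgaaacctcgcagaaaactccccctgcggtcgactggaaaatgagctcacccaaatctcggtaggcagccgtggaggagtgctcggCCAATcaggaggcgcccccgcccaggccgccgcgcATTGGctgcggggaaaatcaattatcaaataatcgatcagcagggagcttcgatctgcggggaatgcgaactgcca
The window of TMPO-AS1 (chr12:98516177-98516476, minus strand) held none of the motifs searched and is all in lower case. This window does not hold the annotated start of TMPO, at base 98515512.
TMPO-AS1: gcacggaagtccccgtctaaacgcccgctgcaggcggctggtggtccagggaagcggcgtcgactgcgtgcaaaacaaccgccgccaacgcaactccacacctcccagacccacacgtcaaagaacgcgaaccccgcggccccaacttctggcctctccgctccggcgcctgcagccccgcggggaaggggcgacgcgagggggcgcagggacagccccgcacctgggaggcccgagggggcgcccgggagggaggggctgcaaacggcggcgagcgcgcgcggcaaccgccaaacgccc
The motifs were searched on both strands over 35116 RefSeq promoter windows of the same length. The E-box CACGTG was in 7.26% of the windows. The CCAAT box was in 34.6% of them. The heat shock repeat was in 6.77% in the form GAANNTTC and in 7.74% in the form TTCNNGAA. The ZFAND2A window held 2 CCAAT and 1 TTCNNGAA, and the MEIS1-AS3 window held 2 CCAAT. No match overlaps another in these windows.

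The second set is mature miRNAs whose genes lie on the same strand inside an antisense locus, with the seed (bases 2 to 8) in capitals. miR-223 is shown because the locus that holds it, AL034397.3, was called higher in shENO1 cells. miR-15a and miR-16, which lie in DLEU2, are shown for their shared seed.
hsa-miR-223-3p: uGUCAGUUugucaaauacccca
hsa-miR-223-5p: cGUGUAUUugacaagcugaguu
hsa-miR-15a-5p: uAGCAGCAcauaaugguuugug
hsa-miR-16-5p: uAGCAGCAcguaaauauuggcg
These are also RefSeq entries of GRCh38.p14. The libraries did not measure mature miRNAs.

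ENO1 was at 91.5, 82.7 and 111 FPKM in the shENO1 libraries, against 526, 545 and 561 FPKM in the WT libraries (log2 fold change -2.51, limma adjusted p = 0.00129). ENO1-AS1, an antisense locus at ENO1 itself, was listed at 0 in all 6 libraries. Reads in genes numbered 14845420 to 17499636 in shENO1 libraries and 14216739 to 15886584 in WT libraries. Reads of the mitochondrial chromosome made up 5.72% to 7.42% in shENO1 libraries and 3.38% to 5.19% in WT libraries; its part in the changes below was not tested. On principal component 2, which held 27.3% of the variance, shENO1 replicate 3 (34.7) and WT replicate 3 (-32.2) stood at opposite ends. Of 12 markers of U937 and early myeloid cells, 11 had a mean of at least 1 FPKM, with a highest mean of 644 FPKM. The 3 red cell markers were at 0, and the 3 T cell and 3 epithelial markers were below 1 FPKM. Of the B cell, fibroblast and endothelial markers, 2, 1 and 1 of 3 passed that level, with highest means of 5.47, 1.20 and 17.7 FPKM.

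Of the 594 loci, 538 overlapped an opposite-strand gene and 56 did not. The partner was protein-coding for 528 loci, and 508 different genes served as partners, 30 of them for more than 1 locus. In 306 pairs the antisense locus lay inside its partner, in 110 they were tail-to-tail with overlapping ends, in 102 head-to-head with overlapping starts, and in 20 the antisense locus lay around its partner. Only 162 loci had a gene symbol, and the other 432 were named by a genomic clone.

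Levels were low. The quartiles of the mean were 1.33, 1.90 and 3.30 FPKM, 73 loci reached 5 FPKM and 24 reached 10 FPKM. The median exon length was 743 bases, and 224 loci had fewer than 10 recovered reads in at least 1 library. Just inside the level of 1 FPKM were AL008635.1, AC011899.2 and U52111.1 (means of 1.0001, 1.0010 and 1.0024 FPKM), and just outside were HOMER3-AS1, AC008105.3 and AL122035.2 (means of 0.99993, 0.99928 and 0.99709 FPKM). A mean of at least 1 FPKM was reached in both groups by 454 loci, in shENO1 alone by 30 and in WT alone by 110. In 476 pairs the partner also had a mean of at least 1 FPKM. The median ratio of antisense to partner level was 0.179 in these pairs, and the antisense locus stood above its partner in 41 of them.

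The table gave no reads to bases covered by exons of both strands. All 324 antisense loci whose every exon base lay under opposite-strand exons were listed at 0 in all 6 libraries, as were 436 of 437 such genes of other biotypes. Of the 2451 antisense loci that shared no exon base with the opposite strand, 40.6% were listed at 0. A member's FPKM therefore came from its unshared exon bases, and these lay only in introns of opposite-strand genes for 332 loci, only outside opposite-strand genes for 105 and in both for 157. Reads were thus not divided by strand in the counting, and the labels state no strand setting. Antisense RNA and unspliced RNA of the partner therefore cannot be told apart within such introns. In bulk samples, fewer cells of a type and less RNA per cell cannot be told apart either.

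The comparison of shENO1 with WT asks how these loci differ between the groups. With no control hairpin labelled, loss of ENO1 cannot be told apart from effects of a vector or of any hairpin. More antisense loci fell than rose: 79 of 594 (13.3%) were lower in shENO1 cells and 15 (2.53%) were higher (limma, adjusted p under 0.05), against a background of 6.46% lower and 7.86% higher among all 12809 tested genes. The median log2 fold change was -0.26 over the antisense loci and -0.02 over all tested genes, on log2(FPKM + 1), and 427 loci (71.9%) were below 0. The 3 shENO1 values lay below the 3 WT values in 163 loci (27.4%, against 17.9% of all tested genes) and above them in 43 (7.24%, against 19.6%). Among the 454 loci at 1 FPKM or more in both groups, 59 (13.0%) were lower and 13 (2.86%) higher, with a median of -0.21. The share over all tested genes under this filter was not computed, so these counts cannot be set against a background. Of the 310 loci with a mean of 1 to 2 FPKM, 18 (5.81%) fell and 2 (0.645%) rose, against 4.71% and 3.38% of all tested genes at that level, so the share that fell was near the background. Of the 211 loci at 2 to 5 FPKM, 45 (21.3%) fell and 9 (4.27%) rose, against 6.50% and 8.76% of all tested genes. Of the 73 loci at 5 FPKM or more, 16 (21.9%) fell and 4 (5.48%) rose, against 6.99% and 8.84%.

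The loci were also counted by the place of their measured bases. Of the 332 loci measured in introns of opposite-strand genes, 52 (15.7%) fell and 6 (1.81%) rose, with a median of -0.44, against 6.46% and 7.86% of all tested genes. Of the 157 measured in both places, 19 (12.1%) fell and 4 (2.55%) rose, with a median of -0.16. Of the 105 measured outside opposite-strand genes, 8 (7.62%) fell and 5 (4.76%) rose, with a median of -0.06, and the share that fell was near the background. This median was 0.016 after quantile normalisation. By position, 48 loci inside the partner (15.7%) fell and 6 (1.96%) rose (median -0.45), and 19 tail-to-tail loci (17.3%) fell and 1 (0.909%) rose (-0.21). Of the head-to-head loci 9 (8.82%) fell and 5 (4.90%) rose (-0.06), again close to the background of falls. The difference between these classes was not tested.

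Sense-intronic loci, which lie in introns on the same strand as the host gene, moved in the same direction. Of 164 such loci, 24 (14.6%) fell and 1 (0.610%) rose, with a median of -0.36, against 6.46% and 7.86% of all tested genes. Among 337 lincRNA loci, which stand between genes, 26 (7.72%) fell and 16 (4.75%) rose, with a median of -0.08. The lincRNA share that fell was near the background. In 10032 protein-coding genes the median was 0.02. In the antisense loci measured in introns, the median deviation from the mean of all libraries was -0.14, -0.11 and -0.33 in the shENO1 libraries and 0.34, 0.23 and 0.09 in the WT libraries. In the sense-intronic loci it was -0.13, -0.11 and -0.31 in the shENO1 libraries and 0.33, 0.14 and 0.08 in the WT libraries. The groups did not overlap in either class, WT replicate 3 was the lowest WT library in both, and shENO1 replicate 3 was the lowest of all. The part of unspliced RNA in the fall of the antisense loci was not tested.

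**Figure D1:**
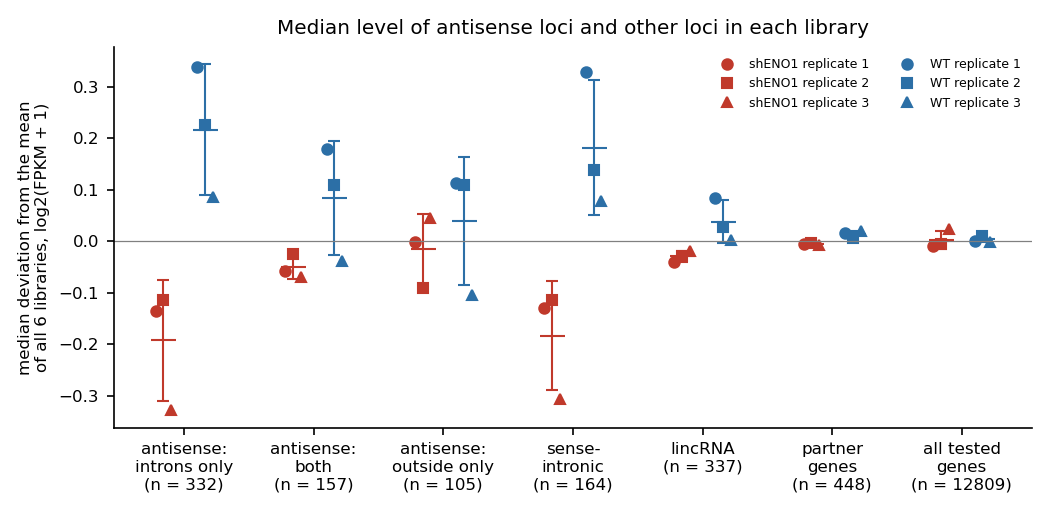
Median deviation of each library from the mean of all 6 libraries, in log2(FPKM + 1), for antisense loci by the place of their unshared exon bases and for other loci; symbols are libraries, horizontal marks are group means and bars are SD (n = 3). The shENO1 medians lie below the WT medians in the intron class (-0.14, -0.11 and -0.33 against 0.34, 0.23 and 0.09) and in sense-intronic loci, while the partner genes lie near 0 in every library.

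**Figure D2:**
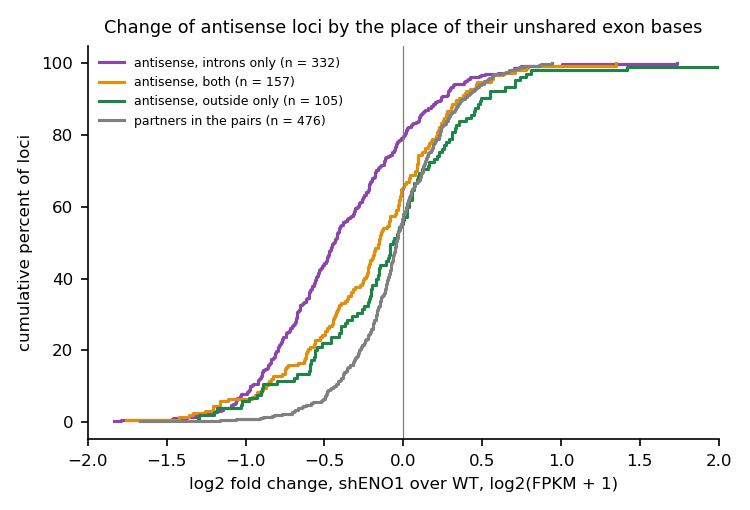
Cumulative percent of loci against the log2 fold change of shENO1 over WT for the 3 classes of antisense loci and for the partners of the 476 pairs; the axis ends at -2 and 2, which leaves out 1 locus, AL355075.4. The intron class lies to the left of the others, with 79.8% of its loci below 0.

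Reads of the 594 loci made up 0.267%, 0.277% and 0.241% of reads in genes in the shENO1 libraries, against 0.327%, 0.297% and 0.269% in the WT libraries. The groups overlap here, since shENO1 replicate 2 lay above WT replicate 3. Calls depended on single libraries. Of the 94 called loci, 19 kept their call without WT replicate 1, 21 when WT replicate 2 was left out and 67 when WT replicate 3 was. Leaving out shENO1 replicate 1 kept 32 calls, shENO1 replicate 2 kept 61 and shENO1 replicate 3 kept 58. The share of calls kept over all tested genes is not given here. Called under every one of these were 2 of the 15 higher loci, TMPO-AS1 and AL034397.3, and 14 of the 79 lower ones, among them UBE2Q1-AS1, AC044849.1, AL132639.3, MED4-AS1, AC079313.1, RUSC1-AS1 and HOTAIRM1. UBE2Q1-AS1, AC044849.1, AL132639.3 and MED4-AS1 reached a mean of 1 FPKM through the WT libraries alone, so they had to be higher in WT. No label states that replicates were separate cultures; the p-values then reflect the spread of these libraries alone, which may be technical.

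The 5 most abundant antisense loci did not share a direction. AC099850.3, inside PRR11 on chromosome 17, was at 54.7, 67.0 and 39.2 FPKM in shENO1 and 52.5, 46.6 and 93.1 FPKM in WT, with overlapping groups (log2 fold change -0.22, adjusted p = 0.667). It was 0.081 without WT replicate 3. AC012645.1, head-to-head with YPEL3, was at 36.0, 34.2 and 40.6 FPKM in shENO1 and 32.6, 33.1 and 31.8 FPKM in WT (0.17, adjusted p = 0.266), and all shENO1 values lay above the WT values. FGD5-AS1, a long noncoding RNA whose partner FGD5 was near 0, was at 33.6, 35.9 and 31.3 FPKM in shENO1, against 21.5, 23.6 and 27.4 FPKM in WT (0.46, SE 0.12, adjusted p = 0.0447). Every shENO1 library was higher, but the call was lost with any library left out other than WT replicate 3. FGD5-AS1 also overlaps NR2C2, the more abundant of its 2 opposite-strand genes. Of its 4800 unshared bases, 1008 lie in introns of opposite-strand genes.

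RUSC1-AS1 fell. It was at 15.4, 18.1 and 12.6 FPKM in shENO1, against 41.7, 34.8 and 33.7 FPKM in WT (log2 fold change -1.21, SE 0.15, adjusted p = 0.00771), on 748 to 2210 reads a library. It overlaps 2 opposite-strand genes, and 90.6% of its unshared bases lie in their introns, where unspliced RNA cannot be told apart. Its partner FDPS, a prenyl diphosphate synthase of the mevalonate pathway, was at 62.5, 56.7 and 81.9 FPKM in shENO1 and 124, 112 and 76.5 FPKM in WT, with overlapping groups (adjusted p = 0.11). AL031600.1, inside the chloride transporter gene CLCN7, was at 19.2, 19.0 and 13.2 FPKM in shENO1 and 36.6, 28.5 and 20.1 FPKM in WT (-0.68, adjusted p = 0.108). The groups of AL031600.1 did not overlap, and it was called without WT replicate 3 (-0.90, adjusted p = 0.0438).

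The largest rise of any of the 12809 tested genes was that of AL355075.4 (chr14:20343048-20343685, minus strand). It had 41, 34 and 322 reads in the shENO1 libraries, against 0, 0 and 1 in the WT libraries, or 4.13, 3.51 and 29.9 FPKM against 0, 0 and 0.113 FPKM. Every shENO1 library stood above every WT library, and shENO1 replicate 3 stood far above the other shENO1 libraries. The ratio of summed reads per depth was 375 (95% exact interval 66.9 to 14841, counting error only), and the log2 fold change was 3.11 (SE 0.70, adjusted p = 0.0337). Without shENO1 replicate 3 the ratio was 112 (95% exact interval 19.5 to 4481) and the log2 fold change 2.21 (adjusted p = 0.0101). The locus reached a mean of 1 FPKM through the shENO1 libraries alone, as did SENCR. The call was lost without WT replicate 1, 2 or 3 or shENO1 replicate 1 (adjusted p of 0.0628 to 0.109) and in limma-voom on the recovered reads (adjusted p = 0.0823).

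AL355075.4 could receive reads on 201 unshared bases alone. Of these, 27 lie past the end of RPPH1, the RNA gene of RNase P on the same strand, and 174 lie between the start of RPPH1 and the start of PARP2, the capitals in the PARP2 window above. RPPH1 itself, whose bases all lie under AL355075.4, was listed at 0. This intergenic stretch is the natural H1 promoter, which drives RPPH1 and which is widely used to express hairpins from vectors. The labels name no vector, and reads of the genome and reads of an introduced copy cannot be told apart here. PARP2, a poly(ADP-ribose) polymerase of DNA repair, was at 14.3, 13.7 and 18.7 FPKM in shENO1 and 23.4, 22.2 and 19.5 FPKM in WT; the groups did not overlap, but PARP2 was not called (-0.46, adjusted p = 0.0712). The log2 ratio of AL355075.4 to PARP2 changed by 3.57 (adjusted p = 0.0254).

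AL034397.3 (chrX:66015461-66020422, plus strand) rose in every shENO1 library. It was at 6.05, 6.74 and 7.91 FPKM in shENO1, against 1.64, 1.76 and 2.47 FPKM in WT. It averaged 6.90 ± 0.937 FPKM in shENO1 and 1.96 ± 0.445 FPKM in WT (SD, n = 3 each), a ratio of 3.53 (log2 fold change 1.42, SE 0.15, adjusted p = 0.0056). No opposite-strand gene overlaps it. It holds MIR223, the gene of the granulocyte and monocyte miRNA whose arms are printed above, and all 110 bases of that hairpin lie in its exons. MIR223 itself was listed at 0 in all 6 libraries. So were other miRNA genes lying wholly in exons of their host, such as MIR142 and MIR23A. The 0 of MIR223 therefore does not show that its precursor was absent.

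In all, 14 of the 594 loci held a small RNA gene on the same strand, looked up after the values had been seen, and 7 of these held 11 miRNA genes. Of the 7, AL034397.3 alone was called, a count too small to set against the background of 7.86% higher and 6.46% lower among all tested genes. AC020916.1, which holds MIR23A, MIR27A and MIR24-2, was at 1.73, 1.84 and 1.78 FPKM in shENO1 and 1.97, 1.77 and 1.39 FPKM in WT, with overlapping groups. AC004687.1, which holds the blood cell miRNA gene MIR142, was at 7.83, 5.55 and 26.2 FPKM in shENO1 and 12.7, 16.1 and 2.44 FPKM in WT, so that replicate 3 was the highest shENO1 library and the lowest WT library (adjusted p = 0.805). DLEU2, with MIR15A and MIR16-1, was at 4.09, 4.40 and 3.72 FPKM in shENO1 and 2.97, 2.86 and 3.47 FPKM in WT. All its shENO1 values lay above the WT values, without a call (0.31, adjusted p = 0.102).

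TMPO-AS1 rose beside a partner that was not called. TMPO-AS1 was at 4.75, 5.39 and 4.42 FPKM in shENO1, against 1.38, 1.22 and 1.29 FPKM in WT, a ratio of means of 3.74 (log2 fold change 1.35, SE 0.11, adjusted p = 0.00351). The groups were far apart compared with the spread within each. TMPO, which encodes lamina-associated polypeptide 2 of the nuclear envelope, was at 28.8, 34.2 and 29.2 FPKM in shENO1 and 27.7, 29.4 and 36.1 FPKM in WT (-0.01, adjusted p = 0.966). The log2 ratio of TMPO-AS1 to TMPO changed by 1.36 (SE 0.15, adjusted p = 0.0182).

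AC078942.1, in an intron of PTPRN2, a receptor-type phosphatase gene of secretory vesicles, was at 8.62, 6.59 and 12.3 FPKM in shENO1, against 1.58, 2.93 and 1.59 FPKM in WT (log2 fold change 1.74, SE 0.25, adjusted p = 0.0107). PTPRN2 was not called (0.16), and the groups of AC078942.1 did not overlap. AC027307.2, inside APC2, was at 7.55, 6.21 and 6.58 FPKM in shENO1, against 2.62, 2.11 and 4.12 FPKM in WT. CTBP1-DT, head-to-head with the corepressor gene CTBP1, was at 4.62, 3.80 and 3.74 FPKM in shENO1, against 2.02, 2.26 and 1.97 FPKM in WT. Both rose (adjusted p of 0.0214 and 0.0128), with no overlap between groups. The other 4 of the 10 largest rises were AC124798.1, AL118506.1, AL391988.1 and SENCR, an RNA known from endothelial and smooth muscle cells. Their log2 fold changes were 0.69 to 0.78, and each lost its call without at least 4 of the 6 libraries in turn.

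**Figure D3:**
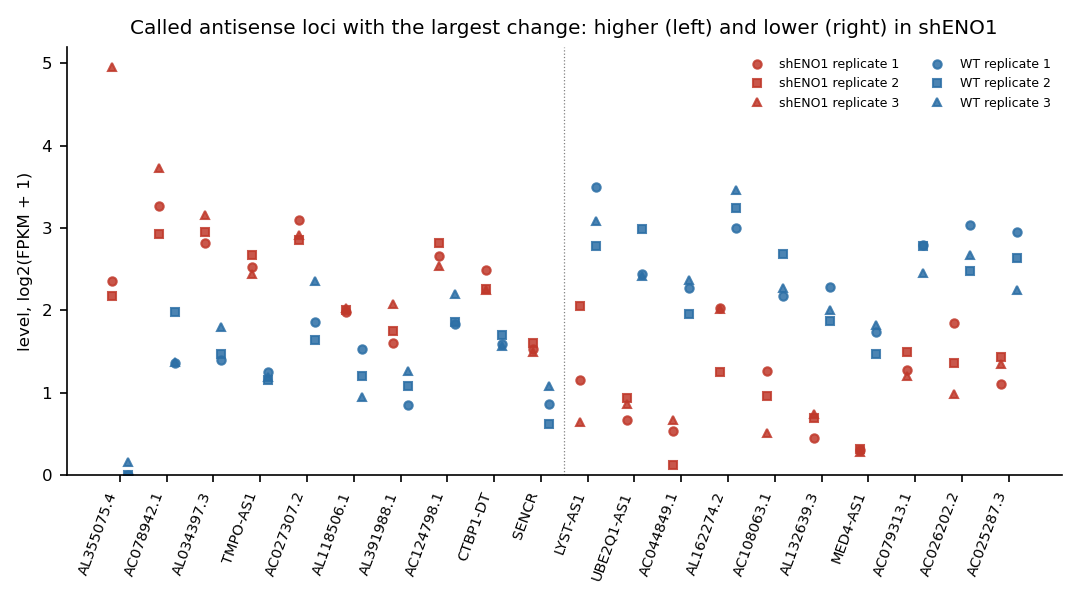
Level in each library, in log2(FPKM + 1), of the 10 called antisense loci with the largest rise and the 10 with the largest fall; red symbols are shENO1 and blue symbols are WT libraries, with a symbol shape per replicate number. The groups do not overlap in any of the 20 loci, and shENO1 replicate 3 of AL355075.4 stands above all other points.

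Among the falls, UBE2Q1-AS1 (chr1:154553609-154555017, plus strand), inside the ubiquitin-conjugating enzyme gene UBE2Q1, was at 0.595, 0.914 and 0.824 FPKM in shENO1, against 4.45, 6.96 and 4.34 FPKM in WT (log2 fold change -1.79, SE 0.18, adjusted p = 0.0056). UBE2Q1 averaged 19.9 ± 2.26 FPKM in shENO1 and 19.4 ± 0.291 FPKM in WT (SD, n = 3 each). The reads behind UBE2Q1-AS1 were few, from 4 to 47 a library. LYST-AS1, in an intron of the lysosomal trafficking regulator gene LYST, was at 1.23, 3.16 and 0.569 FPKM in shENO1, against 10.3, 5.89 and 7.48 FPKM in WT (-1.83, SE 0.37, adjusted p = 0.024). The groups did not overlap in either locus, but LYST-AS1 was not called without WT replicate 1, WT replicate 2 or shENO1 replicate 1.

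MED4-AS1, inside the Mediator subunit gene MED4, was at 0.237, 0.243 and 0.219 FPKM in shENO1, against 2.32, 1.77 and 2.53 FPKM in WT (adjusted p = 0.00666, on 2 to 19 reads a library). AC079313.1, which spans the fibronectin receptor gene ITGA5, was at 1.41, 1.81 and 1.30 FPKM in shENO1, against 5.95, 5.86 and 4.50 FPKM in WT (-1.36, adjusted p = 0.0056). It overlaps 4 opposite-strand genes, of which ITGA5 served as the partner. Of its 498 unshared bases, 393 lie in introns of opposite-strand genes. AL132639.3, head-to-head with the splicing gene PNN, was at 0.364, 0.621 and 0.671 FPKM in shENO1, against 3.88, 2.65 and 2.997 FPKM in WT (-1.42, adjusted p = 0.00666). Each of the 3 fell with no overlap between groups, and their partners were not called. MED4-AS1, AL132639.3, UBE2Q1-AS1, AC108063.1, AC044849.1, AC114947.2, FARSA-AS1 and ZEB2-AS1 had a mean under 1 FPKM in shENO1 and reached that level through the WT libraries alone, so that they had to be higher in WT. The log2 ratio to the partner changed by -1.82 for UBE2Q1-AS1, -1.66 for LYST-AS1, -1.44 for MED4-AS1 and -1.69 for AC079313.1 (adjusted p of 0.0182 to 0.0257). AC108063.1 in TAPT1 also fell (-1.46) beside a partner that was not called.

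KMT2E-AS1, named here after its values were seen, lies head-to-head with the chromatin gene KMT2E and is measured outside it. It was at 4.19, 4.65 and 7.65 FPKM in shENO1, against 14.0, 15.9 and 14.0 FPKM in WT (log2 fold change -1.30, SE 0.20, adjusted p = 0.0117). Its groups did not overlap. KMT2E was at 8.94 ± 1.62 FPKM in shENO1 and 8.55 ± 0.709 FPKM in WT (SD, n = 3 each), and was not called.

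Across the 476 pairs with a measured partner, the antisense locus was below 0 with the partner below 0 in 234 pairs and above 0 with the partner above 0 in 72. It was below 0 with the partner above 0 in 129 and above 0 with the partner below 0 in 41. The 2 genes of a pair were read in the same libraries, so these signs are a description. The median change was -0.37 for the antisense loci and -0.05 for their partners. Of the pairs, 61 had a lower antisense locus beside a partner that was not called, and 7 had a higher one. In 12 pairs both genes were lower. Such counts were not made over all opposite-strand pairs, so they are a description. In 0 pairs were both higher or were both called in opposite directions by limma; at an unadjusted p under 0.05 the counts were 2 and 23, and in limma-voom 1 and 2.

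The ratio of antisense to partner was tested over all opposite-strand pairs of the table. It changed in 52 of the 476 pairs (10.9%), against a background of 10.1% of 2247 pairs, so the share of changed ratios was near the background. It was higher in 8 pairs and lower in 44. Of the 91 head-to-head pairs (15.4% changed), 7 were higher and 7 lower. Of the 280 pairs with the antisense locus inside the partner (10.7% changed), 1 was higher and 29 lower. The share inside the partner was near the background of 10.1%. Of the 94 tail-to-tail pairs (6.38% changed), 6 were lower and 0 higher (4 higher at an unadjusted p under 0.05, 0 in limma-voom). Without WT replicate 1, WT replicate 2 or shENO1 replicate 1, 0 ratios were called in either direction by limma (at an unadjusted p under 0.05, 18 to 20 higher and 85 to 101 lower). Leaving out shENO1 replicate 2 gave 5 higher and 12 lower, and leaving out shENO1 replicate 3 gave 7 and 13.

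**Figure D4:**
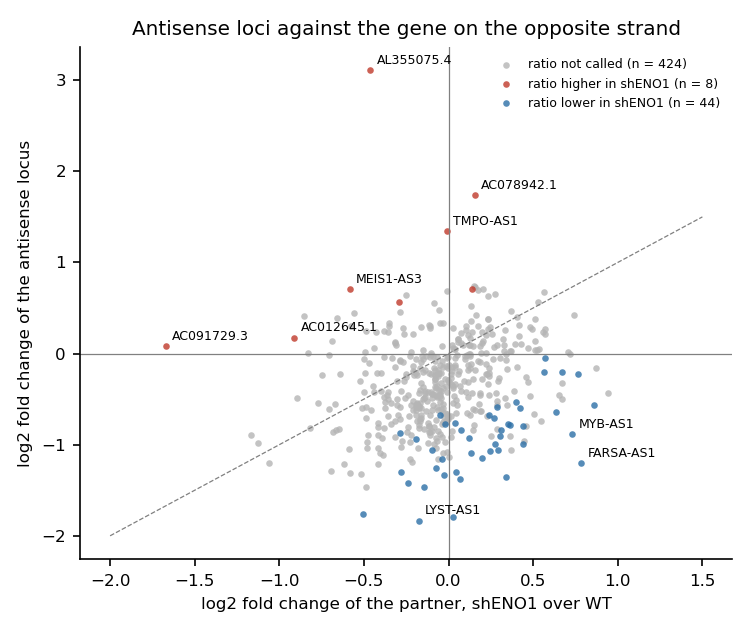
Log2 fold change of each antisense locus (vertical) against that of its partner (horizontal), shENO1 over WT on log2(FPKM + 1), for 476 pairs; the dashed line marks equal change. Most points lie below the dashed line, the 44 pairs with a lower ratio lie well under it, and the 8 with a higher ratio lie above it.

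In 3 of the head-to-head pairs with a higher ratio the partner fell and the antisense locus was not called. ZFAND2A, a stress-induced zinc finger gene of the heat shock response, fell to 2.73, 3.49 and 3.87 FPKM in shENO1, against 14.3, 13.1 and 11.2 FPKM in WT (log2 fold change -1.67, adjusted p = 0.00353). AC091729.3, which starts within the window printed above and runs the other way, was at 1.44, 1.54 and 1.87 FPKM in shENO1 and 1.32, 1.63 and 1.44 FPKM in WT (0.09, adjusted p = 0.705). The groups of AC091729.3 overlapped, those of ZFAND2A did not, and the log2 ratio changed by 1.75 (SE 0.17, adjusted p = 0.0182).

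YPEL3, a growth-restraining gene, was at 5.80, 5.56 and 5.72 FPKM in shENO1, against 11.8, 11.4 and 11.6 FPKM in WT (log2 fold change -0.91, adjusted p = 0.00359). Its antisense locus AC012645.1, given above, did not pass, and the log2 ratio changed by 1.09 (SE 0.12, adjusted p = 0.0182). In this pair the antisense locus was the more abundant gene in all 6 libraries.

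MEIS1, the homeobox gene of haematopoietic and leukaemic stem cells, was at 20.9, 22.7 and 22.4 FPKM in shENO1, against 33.7, 34.0 and 32.7 FPKM in WT (log2 fold change -0.58, adjusted p = 0.0102). MEIS1-AS3, which starts at the MEIS1 promoter with an overlap of 19 bases, was at 2.91, 2.61 and 3.27 FPKM in shENO1 and 2.16, 1.27 and 0.919 FPKM in WT. Its shENO1 values all lay above the WT values, without a call (0.71, adjusted p = 0.0598), and the log2 ratio to MEIS1 changed by 1.29 (SE 0.21, adjusted p = 0.0222). MEIS1-AS2, inside MEIS1 and named after its values were seen, was at 1.44, 0.767 and 2.36 FPKM in shENO1, against 5.67, 6.84 and 3.23 FPKM in WT. It fell together with MEIS1 (-1.31, adjusted p = 0.0365), and its ratio to MEIS1 was not called (adjusted p = 0.182).

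The ratio fell beside a partner that rose at MYB and FARSA. MYB, a transcription factor gene of blood progenitors, was at 64.2, 69.9 and 65.1 FPKM in shENO1, against 37.7, 38.0 and 43.3 FPKM in WT (log2 fold change 0.73, adjusted p = 0.00907). MYB-AS1, inside it, was at 4.15, 5.71 and 2.51 FPKM in shENO1 and 6.94, 10.1 and 7.72 FPKM in WT (-0.89, adjusted p = 0.0598). Neither gene overlapped between groups, and the log2 ratio changed by -1.62 (SE 0.26, adjusted p = 0.0222).

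FARSA, a subunit gene of phenylalanyl-tRNA synthetase, was at 36.0, 31.5 and 48.6 FPKM in shENO1, against 21.0, 23.1 and 21.0 FPKM in WT (0.78, adjusted p = 0.0269). FARSA-AS1 was at 0.267, 0 and 0.492 FPKM in shENO1 and 2.75, 3.71 and 0.300 FPKM in WT, with overlapping groups on 0 to 14 reads. The log2 ratio changed by -1.99 (SE 0.45, adjusted p = 0.0421).

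**Figure D5:**
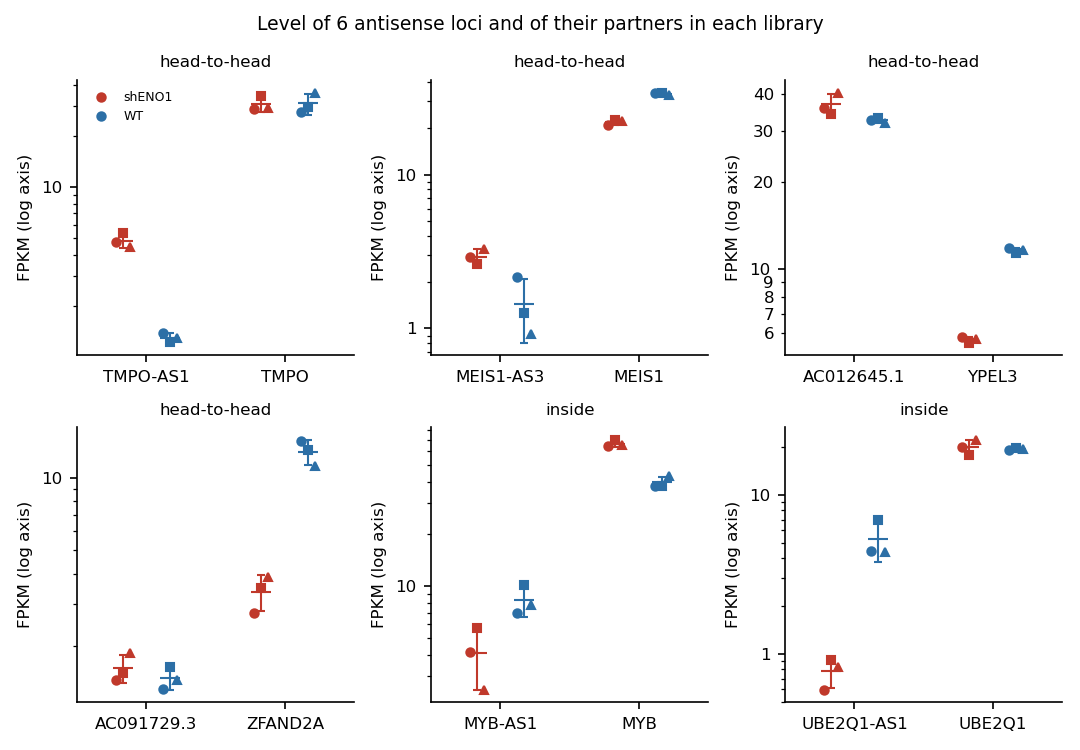
Level in FPKM (log axes, a scale for each panel) of 6 antisense loci and their partners; symbols are libraries, shENO1 in red left of WT in blue, horizontal marks are means and bars are SD (n = 3). TMPO-AS1 rises beside TMPO, which was not called, YPEL3 and ZFAND2A fall beside antisense loci that were not called, and MYB and MYB-AS1 lie in opposite directions, with MYB-AS1 not called.

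The 12 pairs in which both genes fell hold several genes of known pathways. HMGCS1, which encodes an HMG-CoA synthase, was at 49.99, 56.7 and 66.7 FPKM in shENO1, against 128, 131 and 105 FPKM in WT. AC114947.2, tail-to-tail with it, was at 0.746, 0.764 and 0.926 FPKM in shENO1, against 2.65, 3.20 and 3.70 FPKM in WT (log2 fold change -1.20, SE 0.14, adjusted p = 0.00666). Neither gene overlapped between groups, and the ratio was not called (adjusted p = 0.678). On log2(FPKM + 1) the change of AC114947.2 is understated beside that of the far more abundant HMGCS1. The ratio test therefore cannot show whether both genes fell in proportion. AC114947.2 was chosen for these sentences after its values were seen.

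BNIP3, a mitophagy receptor gene, was at 10.5, 9.81 and 10.6 FPKM in shENO1, against 14.5, 16.03 and 14.1 FPKM in WT. AL162274.2, in its intron, was at 3.10, 1.39 and 3.04 FPKM in shENO1, against 6.99, 8.47 and 10.002 FPKM in WT (-1.47, SE 0.24, adjusted p = 0.0136). GABARAPL2, an autophagy gene of the ATG8 family, was at 15.5, 15.0 and 19.6 FPKM in shENO1, against 26.1, 24.9 and 21.6 FPKM in WT. In all these genes the groups did not overlap.

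AC025287.3, in an intron of GABARAPL2, was at 1.15, 1.71 and 1.54 FPKM in shENO1, against 6.75, 5.23 and 3.75 FPKM in WT (-1.32, adjusted p = 0.0114). SARAF, a regulator of store-operated calcium entry, averaged 100 ± 7.32 FPKM in shENO1 and 143 ± 1.73 FPKM in WT (SD, n = 3 each, adjusted p = 0.0246). AC044849.1, head-to-head with it, fell further, to 0.453, 0.0927 and 0.585 FPKM in shENO1, against 3.83, 2.88 and 4.17 FPKM in WT. Its groups did not overlap. Of the 12 antisense loci, 10 were measured only in introns of opposite-strand genes, the exceptions being AC114947.2 and AC044849.1.

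Antisense RNAs with a described role were read from a list of 67 names, of which 18 were among the 594 loci. TMPO-AS1, DHRS4-AS1 and FGD5-AS1 rose, HOTAIRM1, ZFAS1 and ZEB2-AS1 fell, and 12 were not called. The background was 7.86% higher and 6.46% lower over all tested genes, and 2.53% and 13.3% over the 594 loci. The median of the 18 was 0.21, against -0.02 over all tested genes. HOTAIRM1 (chr7:27095647-27100265, plus strand), a myeloid antisense RNA, was at 2.02, 1.98 and 2.46 FPKM in shENO1, against 6.16, 5.09 and 5.07 FPKM in WT. It fell with no overlap between groups (log2 fold change -1.03, SE 0.12, adjusted p = 0.0063).

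The other HOXA antisense loci on the list did not pass. HOXA11-AS was at 9.94, 8.88 and 9.16 FPKM in shENO1 and 8.29, 7.34 and 7.36 FPKM in WT, all shENO1 values above the WT values (0.25, adjusted p = 0.11). HOXA10-AS was at 2.41, 1.07 and 1.69 FPKM in shENO1 and 1.52, 2.01 and 0.393 FPKM in WT, with overlapping groups. Its log2 fold change of 0.28 was -0.047 without WT replicate 3.

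ZFAS1, the host of 3 SNORD12 family snoRNA genes, was at 11.9, 17.7 and 13.4 FPKM in shENO1, against 26.3, 28.1 and 27.2 FPKM in WT. It fell to 0.526 of the WT mean (log2 fold change -0.90, SE 0.14, adjusted p = 0.0135), and no shENO1 value reached a WT value. ZEB2-AS1, which acts on splicing of ZEB2, was at 0.471, 0.671 and 0.510 FPKM in shENO1, against 1.77, 1.55 and 1.29 FPKM in WT (-0.71, adjusted p = 0.0325). ZEB2, a transcription factor gene, was not called (0.27), and the log2 ratio changed by -0.98 (adjusted p = 0.0222).

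DHRS4-AS1, known for silencing at the DHRS4 gene cluster, was at 3.68, 3.33 and 4.11 FPKM in shENO1, against 1.90, 2.01 and 2.19 FPKM in WT (0.63, SE 0.11, adjusted p = 0.0164). The groups did not overlap. ZFAS1 was not called without WT replicate 1 or 2, and DHRS4-AS1 was not called without WT replicate 1 or 2 or shENO1 replicate 1. ZEB2-AS1 lost its call with any library left out other than WT replicate 3.

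Of the list members that were not called, NNT-AS1, NOP14-AS1, VPS9D1-AS1 and RBM5-AS1 had log2 fold changes of 0.08, 0.04, -0.07 and -0.24 with overlapping groups. GATA2-AS1, GABPB1-AS1 and THAP9-AS1 were at -0.26, 0.34 and 0.16, also with overlapping groups. In MCM3AP-AS1 (0.27) and HCG18 (0.42) all shENO1 values lay above the WT values without a call.

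Genes that handle antisense RNA were read from lists as well. Of 38 tested genes of the RNA exosome, its adaptors and transcription termination, 6 rose and 0 fell in limma (3 lower at an unadjusted p under 0.05, 1 in limma-voom), with a median of 0.14, against 7.86% higher and 6.46% lower among all tested genes. In ZFC3H1 (log2 fold change -0.49), EXOSC10 (-0.31) and RBM7 (-0.25) all shENO1 values lay below the WT values without a call. EXOSC2, a cap subunit of the exosome, was at 7.32, 8.25 and 8.55 FPKM in shENO1, against 3.96, 3.53 and 3.03 FPKM in WT (log2 fold change 1.01, SE 0.11, adjusted p = 0.0061). EXOSC5, a ring subunit, was at 25.2, 21.7 and 29.6 FPKM in shENO1, against 13.2, 12.6 and 13.3 FPKM in WT (0.90, adjusted p = 0.00931). Neither subunit overlapped between groups. Of 25 tested genes of double-stranded RNA editing, processing and sensing, 4 rose and 0 fell in limma (1 lower at an unadjusted p under 0.05, 0 in limma-voom), with a median of 0.05, against the same background of 7.86% and 6.46%. DGCR8, the partner of the miRNA-processing enzyme DROSHA, was at 5.55, 5.41 and 6.10 FPKM in shENO1, against 3.75, 3.44 and 2.77 FPKM in WT (0.63, adjusted p = 0.0188). XPO5, the exporter of miRNA precursors, was at 15.7, 16.5 and 14.2 FPKM in shENO1, against 8.77, 9.72 and 10.6 FPKM in WT (0.62, adjusted p = 0.0153), and neither gene overlapped between groups.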

How the data were processed

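Gene levels came from a deposited table of FPKM values for 58735 genes in 6 libraries, 3 per group. Per the submitters' processing notes the tools were STAR, Cufflinks and Cuffnorm with the hg38 (GRCh38) build; their versions are not given in the sources used here. The deposited gene lengths equal merged exon lengths of GENCODE release 29. FPKM times length was a whole multiple of 1 step in 100% of values (tolerance 0.001), which gave read counts per library. The members and the lists were chosen with earlier results of these data known.

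limma 3.58.1 (R 4.3.3) was fitted to log2(FPKM + 1) (group as the single term, trended prior, two-sided, Benjamini-Hochberg over the 12809 genes whose mean reached 1 FPKM; called at an adjusted p under 0.05). The test of a pair was the same fit on the log2 difference, antisense minus partner, over 2247 opposite-strand pairs. Fold changes on this scale understate the change of low genes, also within a ratio to a more abundant partner. The partner was the overlapping opposite-strand gene, protein-coding first, then by largest overlap. Every adjusted p in the text is from limma.

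Named loci were the 10 called loci with the largest change in each direction whose groups did not overlap, the 5 with the highest mean, the 6 pairs with the largest ratio change in each direction, the loci at the level threshold and the members of the role list. MEIS1-AS2, AC114947.2, KMT2E-AS1, AC020916.1 and AC004687.1, the place classes and the small RNA hosts were chosen after values were seen. Alternatives covered the filter, pseudocount, scaling, prior, threshold, choice of partner, limma-voom on recovered reads, a replicate block and each library left out. No 2 libraries agreed within sampling noise (chi-square per degree of freedom of 3.98 to 41.5 within groups). Same-numbered libraries did not deviate alike from their group means. Some results at named loci are not reported here.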

Additional observations from a re-analysis of the deposited data

How the results depend on the processing

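The counts of called loci and of changed ratios depended on the test's strictness and on single libraries. With a mean of at least 5 FPKM, 5 loci were higher and 17 lower, and 4 ratios were higher and 10 lower; with no filter on the level, 4 loci were higher and 24 lower, and 15 ratios were lower. At an adjusted p under 0.01, 2 loci were higher and 15 lower and 0 ratios changed; under 0.1, 26 and 124 loci and 18 and 87 ratios. With the replicate number as a block, 0 loci and 0 ratios were called in either direction by limma (at an unadjusted p under 0.05, 26 loci higher and 157 lower, and 18 ratios higher and 104 lower). Same-numbered libraries deviated from their group means with correlations of -0.08, -0.33 and -0.46. Those of differently numbered libraries ranged from -0.20 to 0.42. Whether libraries shared a culture or a run was not tested. Leaving out each library in turn gave 3 to 15 higher and 16 to 81 lower loci, and 0 to 9 higher and 0 to 43 lower ratios. Without replicate 3 of both groups, a choice made after seeing the data, 29 loci were higher and 141 lower, and 22 ratios were higher and 88 lower. The share called over all tested genes or pairs under each setting is not given here. These counts therefore cannot be set against a background. The cause of these shifts was not tested, except that a stricter threshold or filter calls or tests fewer loci by construction.

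The median log2 fold change of the antisense loci was -0.43 in limma-voom, -0.43 with a pseudocount of 0.1 and -0.11 with 5. In the intron class it was -0.71, -0.69 and -0.17, and outside opposite-strand genes it was 0.016 after quantile normalisation. Of the named loci, 11 values changed sign, all of loci that were not called: AC099850.3 ranged from -0.41 to 0.081 with a library left out and was 0.29 without both replicates 3, VPS9D1-AS1 ranged from -0.18 to 0.027 and was 0.020 after quantile normalisation and 0.049 without both replicates 3, NOP14-AS1 ranged from -0.035 to 0.15, NNT-AS1 from -0.011 to 0.17, and HOXA10-AS from -0.047 to 0.51, with -0.052 without both replicates 3. Of the other values of named loci under the alternatives, 704 kept direction and side of the threshold, 98 lost a call and 10 gained one. Depth limits the low loci, 224 of which had fewer than 10 reads in a library.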
